A study of Mus musculus with 6 samples.

Results

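Matricellular proteins are secreted into the extracellular matrix, where they signal to cells and tune how other matrix proteins assemble and do not themselves form the main fibres. The genes described here are Spp1, Postn, Tgfbi, Sparc, Sparcl1, Thbs1, Thbs2, Tnc and Ccn5, together with Fn1, which encodes the fibre-forming adhesion protein fibronectin. They were picked by name, as were the gene lists below, with earlier results of these data known. The Ensembl identifiers of the deposited table were matched to GENCODE mouse annotation to find them, which gave 10 of the 56953 genes listed.

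The libraries came from mouse embryonic fibroblasts (MEFs), connective tissue cells grown from mouse embryos. 3 libraries carried the label WT, for wild-type cells, and 3 the label GαqKO, which the study's methods describe as a Gαq/11 knockout line. No treatment separated the groups, and both lines came from the same laboratory and were grown in the same serum-containing medium. Each genotype was represented by a single line, so the genotype and any other difference between the lines cannot be told apart.

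Most of these proteins act by holding several partners at once. Osteopontin (Spp1), periostin (Postn), TGFBI, tenascin C and fibronectin are ligands of integrins, and osteopontin is also a ligand of the hyaluronan receptor CD44. Thrombospondin 1 binds CD47 and the protease receptor LRP1, and it can activate latent TGF beta. SPARC binds collagen and takes part in its assembly, and Ccn5 belongs to the CCN family of small modular matrix proteins. Fibroblasts make many of them during development, in healing wounds and in the stroma of tumours.

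The sequence before the start sites of Spp1, Postn and Tgfbi is shown. These genes were picked by their values in these same libraries, as they rose strongly and were abundant enough in GαqKO for firm values. Each was higher in GαqKO, as were 31.8% of all genes tested below, and shared regulation was not tested. The stretches are from the RefSeq promoter table (build GRCm38.p6), placed on GRCm39 by an exact match, and are written 5′ to 3′ on the gene's strand. Capitals mark matches on either strand to the core of a TATA box (TATAAA), to the CCAAT box that NF-Y binds, and to the core of an SP1 site (GGGCGG), and no marked match overlaps another. For Postn the 250 bases before a RefSeq start are given (chr3:54268278-54268527, plus strand). For Tgfbi the stretch ends where GENCODE starts the gene (chr13:56757149-56757335, plus strand). The Spp1 window with matches lies inside a first exon that GENCODE gives to longer transcripts, so only 30 bases around each match are given (chr5:104582918-104582947 and chr5:104582754-104582783, plus strand).
Postn: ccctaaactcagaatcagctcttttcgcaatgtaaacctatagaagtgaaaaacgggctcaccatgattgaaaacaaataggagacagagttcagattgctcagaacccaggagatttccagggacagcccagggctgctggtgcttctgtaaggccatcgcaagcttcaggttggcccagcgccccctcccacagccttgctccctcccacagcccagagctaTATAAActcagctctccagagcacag
Tgfbi: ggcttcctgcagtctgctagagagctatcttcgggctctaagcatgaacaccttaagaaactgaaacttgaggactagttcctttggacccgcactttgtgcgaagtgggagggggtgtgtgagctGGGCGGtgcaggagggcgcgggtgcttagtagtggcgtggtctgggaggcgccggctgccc
Spp1, CCAAT match: actccacctcctgATTGGtggagactgtct
Spp1, TATAAA match: ctaaatgcagtcTATAAAtgaaaagggtag

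No motif searched was present in all 3 of these windows. For Spp1 and Postn RefSeq also gave another start, whose window held no match to any motif searched and is not shown. In the Postn window TATAAA stood 26 to 21 bases before the RefSeq start, and GENCODE starts the gene earlier, so that these letters are among the 27 bases of the window inside the gene as GENCODE places it. The same letters in the Spp1 window stood 211 to 206 bases before the start, and its CCAAT match, on the minus strand, stood 46 to 42 bases before it. Tgfbi had a GGGCGG 124 to 119 bases before the start, and no TATAAA. The table held 6 of the members, the others being Sparc, Thbs2 and Tnc, and had no entry for Sparcl1, Thbs1, Fn1 and Ccn5. TATAAA was found for 4 of these 6, counting any window of a gene. Counted the same way, it was found for 3 of 16 genes of the list of other matricellular genes described below. Of all 32851 windows of this length, counted singly, 12.4% held it, an unlike measure, since several windows give a gene more places for a match. CCAAT was found for 2 of 6 members and 7 of the 16 others (33.8% of all windows). GGGCGG was found for 2 of 6 members and 5 of the 16 others (32.7% of all windows). The AP-1 motif TGANTCA (6.75% of all windows), the TEAD motif GGAATG (12.6%) and the CArG box bound by SRF (1.47%) were found in 0 of the 6. Among the 16 others they were found for 2, 3 and 0 genes.

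The values are the authors' normalized counts, which are reads per gene divided by a single size factor for each library, and these summed to between 11392429 and 11483486 per library. Tests are limma on log2(normalized count + 1), with Benjamini-Hochberg adjustment across 14096 genes that reached 10 normalized counts in 3 or more libraries. Fold changes are on this scale, GαqKO minus WT, which understates the change of low genes. Gnaq, the gene of Gαq, was not lower in the libraries labelled GαqKO. It had 1666, 1660.2 and 1747 normalized counts in WT and 1959.7, 1931 and 1888 in GαqKO (log2 fold change 0.19, adjusted p = 0.00212 from limma), so the Gnaq count does not mark the groups and every direction here rests on the labels. The study reported that its GαqKO MEFs lacked Gαq protein by Western blot and immunofluorescence, which RNA counts do not measure. Gna11, the gene of Gα11, went from 2148 to 451.6 normalized counts on average (log2 fold change -2.25). Of 8 fibroblast markers, 8 entered the test, with 4 higher and 4 lower, and their summed level ran from 73227 to 79139 in WT and from 54694.8 to 57097.5 in GαqKO. The 4 that were lower in GαqKO were Col1a1, Col1a2, Col3a1 and Vim, which stayed abundant in both groups (Col1a1 at 16671 and 5774.5 and Vim at 41785 and 33508 normalized counts on average in WT and GαqKO). The 4 that were higher were Thy1, Pdgfra, Pdgfrb and S100a4, of which Thy1 (at most 2.1 in WT, 59.0 to 76.5 in GαqKO) and Pdgfra (at most 21.9 in WT, 2274 to 2356 in GαqKO) were near 0 or low in WT. The 6 epithelial markers summed to between 515.1 and 540.8 in WT and between 10.0 and 23.2 in GαqKO, nearly all of it Cdh1 and Krt14 in WT. Neural markers summed to between 424.4 and 489.7 in WT and between 111.7 and 127.7 in GαqKO, with Tubb3 lower (log2 fold change -2.73). Chondrocyte markers, nearly all Sox9, summed to between 1515.6 and 1713.5 in WT and between 2430.1 and 2498.4 in GαqKO. Leukocyte markers, mostly Cd68, summed to between 105.4 and 120.4 in WT and between 70.4 and 104.1 in GαqKO. Cd68 was lower (log2 fold change -0.48, adjusted p = 0.0296 from limma), and Ptprc had at most 3.1 normalized counts. The osteoblast list, nearly all Runx2, summed to between 1627.1 and 1852.5 in WT and between 1731.1 and 1816.4 in GαqKO. Endothelial and skeletal muscle markers summed to at most 26.7 and 18.5 in any library. The part of these differences in the results below was not tested. In bulk RNA, fewer cells of a type and less RNA per cell cannot be told apart.

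Spp1, Postn, Tgfbi and Sparcl1 were the members that rose most in the libraries labelled GαqKO, and Thbs1 fell most. Of the 10 members, 9 entered the test, 7 of them with at least 10 normalized counts in all libraries. Tgfbi and Sparcl1 entered through the GαqKO libraries alone, and Thbs2 did not enter. With an adjusted p under 0.05, 5 members were higher in GαqKO (Spp1, Postn, Tgfbi, Sparcl1 and Ccn5), beside 31.8% of all genes tested. 3 were lower (Sparc, Thbs1 and Fn1), beside 34.1% of all genes tested, and Tnc was not called. Since 65.8% of all genes tested were called in either direction, a call by itself does not set a member apart. Past both thresholds used in the study (log2 fold change over 1 or under -1 and adjusted p under 0.05), 4 members were higher, beside 10.2% of all genes, and 1 was lower, beside 10.5%. The direction of Tgfbi and Sparcl1, 2 of these 4, was fixed by how they entered the test. With 10 normalized counts required in every library they were not tested, and 2 members were higher and 1 lower past both thresholds. The libraries of the groups did not overlap for 8 of the 9 members tested, beside 69.6% of all genes tested. The median log2 fold change was 0.66 over these 9 members and -0.01 over all genes tested. This median includes Tgfbi and Sparcl1, which could enter only by being high in GαqKO, so it does not measure a shift of the members.

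**Figure D1:**
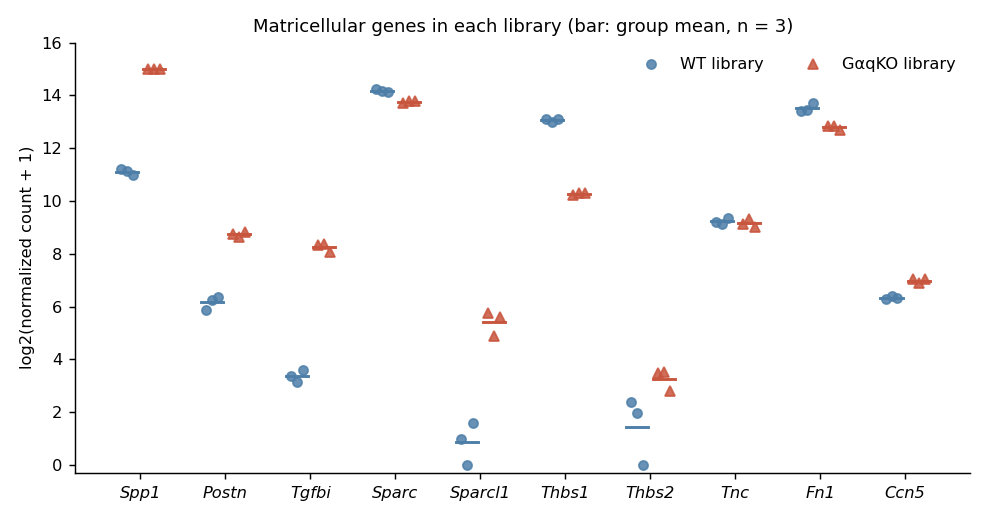
Level of the 10 members in each library, as log2(normalized count + 1) on the y axis, with WT libraries as circles, libraries labelled GαqKO as triangles and a bar at the group mean (n = 3). Spp1, Postn, Tgfbi and Sparcl1 sit clearly higher in GαqKO and Thbs1 clearly lower, while the Tnc libraries overlap.

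Spp1 encodes osteopontin, a secreted phosphoprotein of bone matrix and of activated stromal and immune cells that binds integrins and CD44. Spp1 (ENSMUSG00000029304.15, chr5:104582165-104589235) had 2387, 2232 and 2017 normalized counts in WT replicates 1, 2 and 3. In GαqKO replicates 1, 2 and 3 it had 32529, 32976 and 32917 normalized counts. All GαqKO libraries stood far above all WT libraries, and they lay closer together, with a coefficient of variation of 0.741% against 8.39% in WT. The mean rose 14.8-fold, from 2212 ± 185.6 to 32807 ± 243.0 normalized counts (SD, n = 3 each). The log2 fold change of Spp1 was 3.89 with a standard error of 0.054 (adjusted p = 3.285e-15 from limma). Among the exon bases of Spp1, 12.7% lie in the span of another listed gene, which is listed at 0 in all libraries.

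Postn and Tgfbi encode the related proteins periostin and TGFBI, both built from fasciclin domains, which bind collagens and integrins. Postn (ENSMUSG00000027750.17, chr3:54268501-54298471) had 57.4, 75.8 and 80.4 normalized counts in the WT libraries and 426, 398 and 455 in the GαqKO libraries. Every GαqKO value lay above every WT value, and the mean rose 5.99-fold. Postn had a log2 fold change of 2.58 with a standard error of 0.134 (adjusted p = 1.02e-09 from limma). Chromosome 3, where Postn lies, had a median log2 fold change of 0.32 over 734 tested genes, the highest of the chromosomes, and 2.25 of the log2 change of Postn remains above that median. Whether a shift of the whole chromosome takes part was not tested.

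Tgfbi, whose product is induced by TGF beta, rose strongly from a low level. Tgfbi (ENSMUSG00000035493.11, chr13:56757336-56787375) had 9.4, 7.8 and 11.2 normalized counts in WT and 325, 331 and 265 in GαqKO. It was close to the filter's minimum in every WT library and well expressed in every GαqKO library, with no overlap. The means, 9.46 ± 1.71 and 306.8 ± 36.5 normalized counts (SD, n = 3 each), differed 32.4-fold. The log2 fold change of Tgfbi was 4.89 with a standard error of 0.199 (adjusted p = 8.32e-11 from limma).

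Of the related genes Sparc and Sparcl1, the abundant one fell a little and the scarce one rose. Sparc (ENSMUSG00000018593.14, chr11:55285317-55314067, minus strand) encodes SPARC, or osteonectin, a collagen-binding protein. It had 19291, 18387 and 17866 normalized counts in WT and 13573, 14223 and 14025 in GαqKO. The groups did not overlap, but the GαqKO mean was still 0.753 times the WT mean. On the log2 scale Sparc changed by -0.41 with a standard error of 0.043 (adjusted p = 1.49e-06 from limma).

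Sparcl1 (ENSMUSG00000029309.8, chr5:104226288-104262065, minus strand) encodes hevin, a relative of SPARC known from blood vessels and brain. It had 1.0, 0 and 2.0 normalized counts in WT and 53.5, 28.9 and 47.3 in GαqKO. The gene was at or near 0 in each WT library and clearly detected in each GαqKO library. In the 5 libraries whose reads could be recovered, this was 3 reads in WT against 82 in GαqKO, a depth-adjusted ratio of 42.1 with an exact 95% interval from 13.9 to 208.1 that covers counting error only. The log2 fold change of Sparcl1 was 4.54 with a standard error of 0.481 (adjusted p = 1.68e-06 from limma). With a pseudocount of 5 the log2 fold change was 2.98. When any single GαqKO library was left out, Sparcl1 no longer reached the filter's minimum in 3 libraries and was not tested.

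Both thrombospondins are multidomain glycoproteins that restrain the growth of blood vessels, but only Thbs1 was well expressed. Thbs1 (ENSMUSG00000040152.9, chr2:117941974-117957616) had 8870, 8242 and 8804 normalized counts in the WT libraries. In the GαqKO libraries it had 1193, 1274 and 1266 normalized counts. Every GαqKO library was far below every WT library, and the mean was 6.94-fold lower, 1244 ± 44.9 against 8639 ± 345.6 normalized counts (SD, n = 3 each). For Thbs1 the log2 fold change was -2.79 with a standard error of 0.046 (adjusted p = 1.54e-14 from limma). Genes on the opposite strand span 15.4% of its exon bases, and the more abundant of these had at most 21.9 normalized counts.

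Thbs2 (ENSMUSG00000023885.10, chr17:14885761-14914528, minus strand) had 4.2, 2.9 and 0 normalized counts in WT and 10.3, 10.4 and 6.0 in GαqKO. All GαqKO values were above all WT values, yet the gene was near the detection limit in all libraries and failed the filter. In the 5 libraries with recovered reads there were 7 reads in WT and 20 in GαqKO, a ratio of 4.40 with an exact 95% interval from 1.79 to 12.3 for counting error. Without the filter the adjusted p of Thbs2 was 0.0327 in limma, and on the recovered reads it was 0.0207 in edgeR and 0.14 in DESeq2, so its call depends on the tool.

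Tnc, the gene of tenascin C, a large hexameric protein of developing and injured tissue, did not differ detectably. Tnc (ENSMUSG00000028364.16, chr4:63878014-63965443, minus strand) had 589, 553 and 662 normalized counts in WT and 562.5, 639 and 519.6 in GαqKO, and the groups overlapped. Tnc had a log2 fold change of -0.07 with a 95% interval from -0.25 to 0.12 (adjusted p = 0.503 from limma). Chromosome 4 had a median log2 fold change of -0.35 over 860 tested genes, the lowest of the chromosomes. A non-coding gene on the opposite strand spans 73.2% of the exon bases of Tnc. That gene had at most 11.6 normalized counts, and how many Tnc reads were left uncounted there is not known.

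Fn1 encodes fibronectin, whose fibrils carry binding sites for integrins and collagens and for several of the other members. Fn1 (ENSMUSG00000026193.16, chr1:71624673-71692419, minus strand) had 10992, 11149 and 13338 normalized counts in WT and 7305, 7424 and 6622 in GαqKO. WT replicate 3 stood above the other WT libraries, and all GαqKO libraries were below all WT libraries. The log2 fold change of Fn1 was -0.73 with a standard error of 0.068 (adjusted p = 4.57e-07 from limma), with values between -0.78 and -0.64 after removal of any single library.

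Ccn5, also known as Wisp2, encodes the CCN protein that lacks the carboxy-terminal domain found in the rest of its family. Ccn5 (ENSMUSG00000027656.8, chr2:163662753-163675066) had 76.2, 83.5 and 78.4 normalized counts in WT and 130.5, 117 and 129.9 in GαqKO. The groups did not overlap, although the rise was modest, 1.58-fold between the means. For Ccn5 the log2 fold change was 0.66 with a standard error of 0.138 (adjusted p = 8.55e-04 from limma), under the fold threshold of the study.

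Divided by exon length, so that genes can be compared, the summed level of the 10 members was 7328 ± 193.6 normalized counts per kb in WT and 15720 ± 164.9 in GαqKO (SD, n = 3 each). The rise was that of Spp1: without it the sum was 6550 ± 150.9 normalized counts per kb in WT and 4178 ± 87.3 in GαqKO. Spp1 made up 10.6% ± 0.707 of the summed per-kb level in WT and 73.4% ± 0.299 in GαqKO (SD, n = 3 each). Sparc, the leading gene in WT, went from 59.2% ± 1.17 of the per-kb sum to 20.8% ± 0.283. Thbs1 went from 18.2% ± 0.555 to 1.23% ± 0.033 of the per-kb sum, and Fn1 from 10.2% ± 1.28 to 2.86% ± 0.175. These shares have no test, and each share depends on the level of Spp1.

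**Figure D2:**
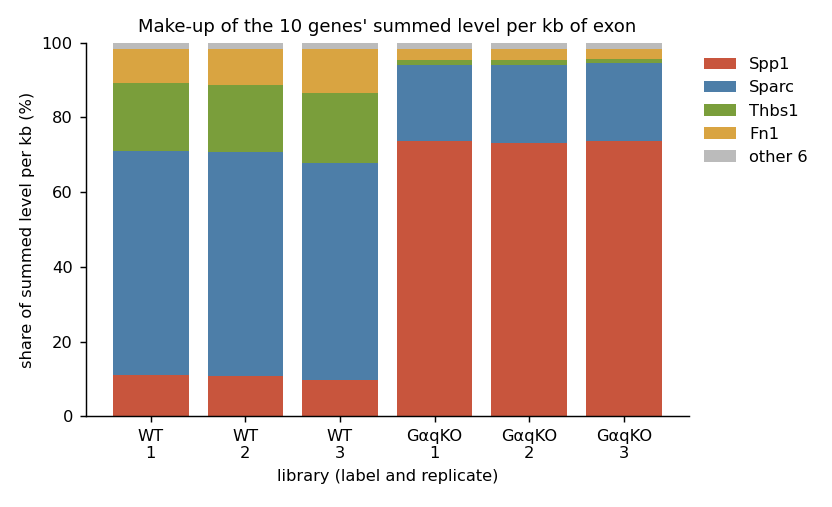
Share of each member in the summed level per kb of exon (y axis, percent) in each of the 6 libraries (x axis), with the 6 lowest members pooled as 1 grey segment. Sparc is the largest segment in all WT libraries and Spp1 in all libraries labelled GαqKO.

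The order of the members by level per kb also changed. In WT it was Sparc (4342 ± 169.1 normalized counts per kb), Thbs1 (1338 ± 53.5), Spp1 (778.1 ± 65.3), Fn1 (747.0 ± 82.8), Tnc (75.4 ± 6.96), Ccn5 (36.7 ± 1.74), Postn (8.13 ± 1.39), Tgfbi (2.50 ± 0.454), Thbs2 (0.283 ± 0.256) and Sparcl1 (0.137 ± 0.136). The libraries of Spp1 and Fn1 overlapped on this scale, as did those of Thbs2 and Sparcl1. In GαqKO it was Spp1 (11540 ± 85.5 normalized counts per kb), Sparc (3269 ± 78.2), Fn1 (449.6 ± 27.3), Thbs1 (192.7 ± 6.95), Tgfbi (81.3 ± 9.65), Tnc (72.0 ± 7.61), Ccn5 (58.2 ± 3.59), Postn (48.7 ± 3.28), Sparcl1 (5.78 ± 1.71) and Thbs2 (1.07 ± 0.299). Here only Tgfbi and Tnc overlapped among neighbours. When only exon bases in no other gene's span were counted as length, Tnc stood at 268.5 normalized counts per kb in GαqKO, above Thbs1 at 227.7, so the place of Tnc depends on the length used. Among all genes above 0, Spp1 moved from rank 608 of 23224 by level per kb in WT to rank 31 of 23696 in GαqKO, while Thbs1 moved from rank 352 to rank 2825. Sparc went from rank 89 to rank 130 and Fn1 from rank 643 to rank 1130 by level per kb.

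A list of 23 further genes held other matricellular families and, with them, the scavenger receptor genes Stab1 and Stab2. Of these, 12 entered the test, and 2 were higher (31.8% of all genes tested), 7 were lower (34.1% of all genes tested) and 3 were not called. The median log2 fold change of the 12 was -1.02, against -0.01 over all genes tested. It includes Dmp1 and Tnn, which entered through the GαqKO libraries alone, and Stab1, which entered through the WT libraries alone. Past both thresholds, 2 were higher (10.2% of all genes tested) and 6 were lower (10.5% of all genes tested), Stab1 among them. Thbs3, Thbs4 and Ibsp were listed at 0 in all libraries, and every exon base of Thbs3 lies in the span of another listed gene.

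Of the 6 CCN genes, members and others together, 1 was higher (Ccn5) and 5 were lower, beside 31.8% and 34.1% of all genes tested. Ccn1 (Cyr61) and Ccn2 (CTGF) are classic targets of YAP and TAZ, and both encode integrin-binding proteins. Ccn1 had 14124, 13339 and 12369 normalized counts in WT and 4396.5, 4705 and 4643 in GαqKO (log2 fold change -1.53, adjusted p = 1.09e-11 from limma). Ccn2 had 5399.5, 4955 and 4416 in WT and 629, 701 and 692 in GαqKO (log2 fold change -2.86, adjusted p = 4.98e-13 from limma). Ccn4 (Wisp1), a WNT target, had 5323, 5521 and 5253 in WT and 444, 438 and 395 in GαqKO (log2 fold change -3.65, adjusted p = 7.03e-15 from limma). None of these 3 genes had overlapping groups. Of the exon bases of Ccn2, 40.8% lie in other genes' spans, and 23.0% of those of Ccn1. The less abundant Ccn3 (Nov) and Ccn6 fell by 1.78 and 1.17 on the log2 scale.

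Elsewhere in these families, Tnn, the gene of tenascin N (tenascin W), rose from 9.4, 1.9 and 5.1 normalized counts in WT to 23.5, 28.9 and 26.2 in GαqKO (log2 fold change 2.25, adjusted p = 5.20e-04 from limma). Dmp1, which encodes an acidic phosphoprotein of bone and dentin, was at 0 in all WT libraries and had 24.4, 37.0 and 44.3 normalized counts in GαqKO. Against a floor of 3 reads over the WT group, Dmp1 was at least 29.7-fold higher in the 5 libraries with recovered reads (adjusted p = 3.30e-07 from limma). Both entered the test through the GαqKO libraries alone and were not tested when a GαqKO library was left out. Stab1, a scavenger receptor gene that takes up SPARC, fell from 11.5, 10.7 and 17.3 normalized counts in WT to 1.9, 2.3 and 1.0 in GαqKO (log2 fold change -2.38, adjusted p = 5.16e-04 from limma). It entered the test through the WT libraries alone, and when any single WT library was left out 5 of this list, not 6, were lower past both thresholds.

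**Figure D3:**
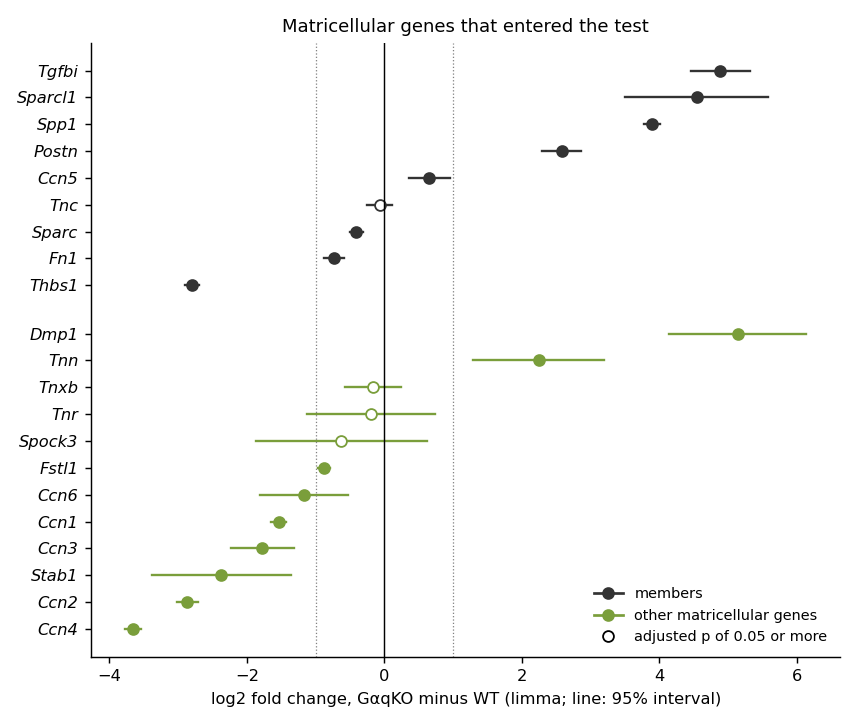
Fitted log2 fold change, GαqKO minus WT (x axis), of the members and of the other matricellular genes that entered the test, with 95% intervals as lines, dotted lines at the study's fold threshold and open points for genes with an adjusted p of 0.05 or more. Tgfbi (4.89), Sparcl1 (4.54), Spp1 (3.89) and Dmp1 (5.14) lie at the far right, and Ccn4 (-3.65), Ccn2 (-2.86) and Thbs1 (-2.79) at the far left.

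Of 17 receptor genes for these proteins, 13 entered the test, of which 3 were higher (31.8% of all genes tested), 9 lower (34.1% of all genes tested) and 1 (Itgb3) not called. Their median log2 fold change was -0.79, against -0.01 over all genes tested. It includes Itga8, which entered through the GαqKO libraries alone, and Stab1, which entered through the WT libraries alone. Past both thresholds were 1 higher (10.2% of all genes tested) and 3 lower (10.5% of all genes tested). Itgb8, whose product pairs with αv integrin and activates latent TGF beta, fell from 1082, 1049 and 1069.8 normalized counts in WT to 49.8, 32.4 and 52.4 in GαqKO (log2 fold change -4.57, adjusted p = 9.77e-12 from limma). Itgav, the αv chain shared by several osteopontin, periostin and fibronectin receptors, fell from 2822, 2897 and 2885 to 1419, 1389.8 and 1374 normalized counts (log2 fold change -1.04, adjusted p = 8.38e-11 from limma). Stab1, which this list shares with the one above, was the other gene lower past both thresholds, and without any single WT library 2 receptors, not 3, were lower past them.

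Among the receptors that rose, Itga8 encodes the α8 chain of an integrin that binds osteopontin, tenascin C and fibronectin. It had 6.3, 0 and 3.1 normalized counts in WT and 21.6, 16.2 and 16.1 in GαqKO (log2 fold change 2.61, adjusted p = 0.00218 from limma), and it was not tested when a GαqKO library was left out. Itgb1, the β1 chain with which α8 pairs, was higher with a log2 fold change of 0.60, from 8254 to 12548 normalized counts on average. Cacna2d1, a thrombospondin receptor of neurons, was higher with a log2 fold change of 0.40. Cd44, the gene of an osteopontin receptor, was lower with a log2 fold change of -0.30. Cd47, the gene of a thrombospondin 1 receptor, was lower with a log2 fold change of -0.84.

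Of 8 genes for enzymes that cut, phosphorylate or crosslink matricellular proteins, 6 entered the test. 4 of them were higher (31.8% of all genes tested), 1 was lower (Bmp1, log2 fold change -0.43, beside 34.1% of all genes tested) and 1 was not called (Mmp14). Past both thresholds 2 were higher (10.2% of all genes tested). Mmp9, a gelatinase that also cleaves osteopontin, had 5.2, 12.6 and 18.3 normalized counts in WT and 245, 245 and 214.5 in GαqKO (log2 fold change 4.32, adjusted p = 4.83e-08 from limma). Adamts1, a protease of proteoglycans that also cleaves thrombospondins, had 542, 524 and 547 in WT and 1189, 1157 and 1201 in GαqKO (log2 fold change 1.14, adjusted p = 3.70e-10 from limma). Neither gene had overlapping groups, but Mmp9 entered the test through the GαqKO libraries alone. Plau, the urokinase gene, and Fam20c, the gene of the kinase that phosphorylates osteopontin, were higher with log2 fold changes of 0.62 and 0.31, under the fold threshold. Tgm2 and Mmp3 did not pass the filter.

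**Figure D4:**
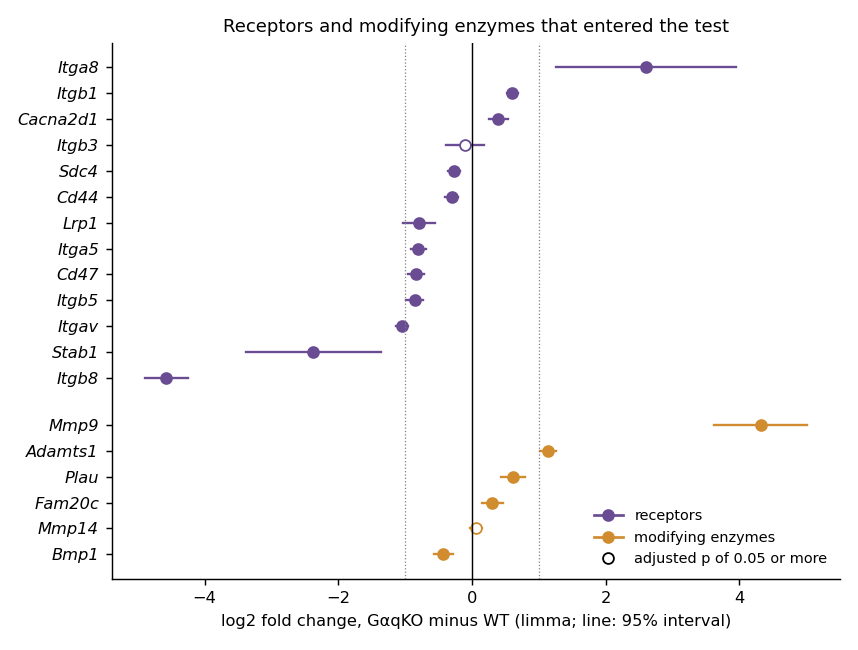
Fitted log2 fold change, GαqKO minus WT (x axis), of the receptor and enzyme genes that entered the test, with 95% intervals as lines, dotted lines at the study's fold threshold and open points for genes with an adjusted p of 0.05 or more. Itgb8 (-4.57) and Mmp9 (4.32) lie farthest from 0, and most receptor genes lie to the left of it.

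Spp1 and Sparcl1 lie in the same stretch of chromosome 5, in a cluster of genes for acidic phosphoproteins of bone and tooth that also holds Dspp, Dmp1, Ibsp and Mepe. All 5 genes of this stretch that entered the test, from Nudt9 to Pkd2, were higher in GαqKO past both thresholds (10.2% of all genes tested), with Sparcl1 and Dmp1 entering through the GαqKO libraries alone. Nudt9, the gene of an ADP-ribose hydrolase that starts 388 kb before Spp1, had 424, 409 and 372.5 normalized counts in WT and 908, 980.5 and 920.4 in GαqKO (log2 fold change 1.22). Pkd2, the gene of polycystin 2, starts 25.1 kb after the start of Spp1 and had 1765, 1870.0 and 1915 normalized counts in WT and 3910.1, 3740.4 and 3886 in GαqKO (log2 fold change 1.06). The groups of both genes did not overlap. Ibsp, 135.1 kb before Spp1, was at 0 in all libraries, and Dspp and Mepe had at most 1.9 and 0.9 normalized counts, and none of these 3 genes was tested.

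**Figure D5:**
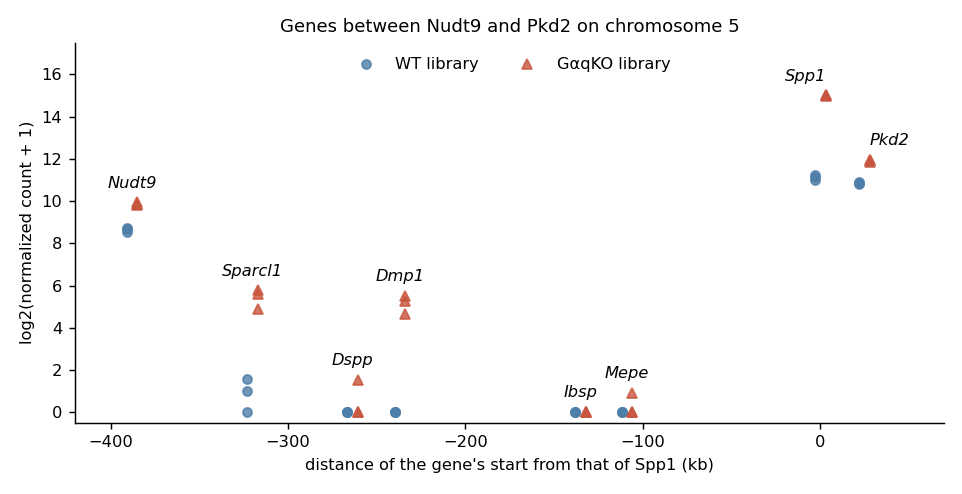
Level of the 8 genes between Nudt9 and Pkd2 as log2(normalized count + 1) (y axis) against the distance of each gene's start from that of Spp1 in kb (x axis), with WT libraries as circles drawn slightly to the left and libraries labelled GαqKO as triangles drawn slightly to the right. Nudt9, Sparcl1, Dmp1, Spp1 and Pkd2 are higher in all GαqKO libraries, while Dspp, Ibsp and Mepe stay at or near 0.

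Within 1 Mb of Spp1, 11 other genes entered the test (Spp1, Sparcl1 and Dmp1 left out), of which 5 were higher and 5 lower with an adjusted p under 0.05, beside 31.8% and 34.1% of all genes tested. Of these 11, 4 were higher past both thresholds (10.2% of all genes tested), among them Nudt9 and Pkd2, which were already counted above. The log2 fold changes of the 11 ran from -7.04 to 2.43 with a median of 0.30. Within 5 Mb, 28 of 60 other genes were higher and 11 lower, beside 31.8% and 34.1% of all genes tested. Of these 60, 8 were higher past both thresholds, beside 10.2% of all genes tested, and the median was 0.24. Genes lower past both thresholds were not counted in either window. Over the 920 tested genes of chromosome 5 the median log2 fold change was 0.02. Whether gene copy number or a shared regulatory region takes part in this stretch was not tested.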

How the data were processed

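RNA from WT and GαqKO MEFs (the study states 3 biological replicates per genotype) was measured in 6 libraries. The labels do not say whether the libraries of a group came from separate cultures, so p-values measure the spread between these libraries. The authors selected poly-A RNA, aligned paired-end reads to GRCm39 with Rbowtie2, counted them with featureCounts (Rsubread) on GENCODE release 32 and deposited a signal, meaning normalized counts in which a library's gene counts share 1 size factor. Tool versions and the strand setting of the counting are not given in the sources used here. Protein-coding genes nested with all their exons inside other genes had 0 in all libraries in 71.5% of 1607 cases, and those overlapping no gene in 25.2% of 11516 cases.

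Identifiers were matched to GENCODE release 39 (56310 of 56953, 98.9%). The members and gene lists were chosen with earlier results of these data known. The named genes are the 10 members, Gnaq and Gna11, the chromosome 5 list, and of each other list those past both thresholds or listed at 0. Itgb1, Itgb3, Cacna2d1, Cd44, Cd47, Bmp1, Mmp14, Plau, Fam20c, Tgm2, Mmp3 and the markers beyond their sums were named after their values were seen.

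The main test was limma 3.58.1 in R 4.3.3 (trend in the prior spread, two-sided) on log2(normalized count + 1), for genes with at least 10 in at least 3 libraries. In 5 libraries 100% of nonzero values were whole multiples of the value of 1 read (tolerance 0.1 reads), which gave 10951874, 11792648 and 11234142 reads in WT and 12229175 and 9853000 in GαqKO replicates 1 and 2. The reads of GαqKO replicate 3 were not used, because 1 read was there worth almost exactly 1 normalized count, too close for the recovery to be accepted. On these 5 libraries edgeR 4.0.16 and DESeq2 1.42.0 were run as alternatives. Between replicates with reads the chi-square per gene was 2.38 to 5.10, above counting noise. Levels per kb used the union of exons. Python 3.11.15 with numpy 2.4.6, pandas 2.3.3, scipy 1.17.1 and matplotlib 3.10.9 was used. The limma, edgeR and DESeq2 fits were tested on simulated data in which only well-expressed genes were changed. That test says nothing about calls of low genes, and it changed far fewer genes than were called here. The alternatives were other scalings, filters and pseudocounts (0.5 and 5), a replicate block, no trend, limma's treat test, the count tests, other lengths, and each library left out in turn.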

Additional observations from a re-analysis of the deposited data

How the results depend on the processing

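For all 9 tested members the direction and the side of the threshold held in every alternative that tested them, with Spp1 from 3.83 to 3.95, Thbs1 from -2.83 to -2.76, Tgfbi from 4.43 to 5.12 and Sparcl1 from 2.98 to 5.36 on the log2 scale; only the sign of the uncalled Tnc varied (-0.15 to 0.01). Scaling moved the median of all genes by at most 0.006. Requiring 10 normalized counts in every library left 3 members higher and 2 past both thresholds, since Tgfbi and Sparcl1 were no longer tested, and it left 0 other matricellular genes, 0 receptors and 1 enzyme higher past both thresholds, with Mmp9 among the genes no longer tested. With limma's treat test these became 1, 0 and 1. Leaving out each library in turn gave 4 to 5 members higher, 3 lower, 3 to 4 past both thresholds higher and 1 lower, and 7 to 8 without overlap. It gave 0 to 2 other matricellular genes and 0 to 1 receptors higher past both thresholds, the lowest when any single library of GαqKO replicates 1, 2 and 3 was left out, since Dmp1, Tnn and Itga8 fell under the filter. Without a filter 1 enzyme (Tgm2) was lower past both thresholds. With the treat test or 10 required in every library, 5 other matricellular genes, not 6, and 2 receptors, not 3, were lower past them. The other matricellular count was also 5 without GαqKO replicate 3 and on the recovered reads in edgeR and DESeq2. Low genes such as Thbs2 are limited by depth.

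With the replicate number as a block, 8962 genes had an adjusted p under 0.05 against 9279 without it, and no member changed its call (5 higher, 3 lower, 4 and 1 past both thresholds). Same-numbered libraries did not deviate together (correlations of -0.08, -0.02 and -0.06 over 10033 genes). Differently numbered libraries had correlations from -0.034 to 0.097. These values show no sign of pairing by number, but with 3 libraries per group they cannot exclude it.

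Counting only exon bases in no other gene's span gave, per kb in WT and GαqKO, 891.7 and 13220 for Spp1, 1581 and 227.7 for Thbs1 and 281.3 and 268.5 for Tnc. The per-kb share was then 74.9% for Spp1 in GαqKO, 54.8% and 18.5% for Sparc, 20.0% and 1.29% for Thbs1, and 2.64% for Fn1 in GαqKO. Leaving out Spp1 gave shares of 66.3% and 78.2% for Sparc, 20.4% and 4.61% for Thbs1, and 10.8% for Fn1 in GαqKO.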
